A study of Mus musculus with 4 samples.

Results

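The genes described here are the 5 subunits of the transcription factor NF-kB and 5 of the inhibitors that restrain it, 10 of the 15586 genes measured in sorted retinal microglia. They were chosen by symbol: Nfkb1, Nfkb2, Rela, Rel and Relb as subunits, and Nfkbia, Nfkbib, Nfkbie, Nfkbiz and Tnfaip3 as inhibitors. All 10 were found. The 2 TAK1 knockout libraries (TAK1_KO) came from adult mice with the tamoxifen-inducible Cre of Cx3cr1CreER/+ and floxed Tak1 that received tamoxifen by intraperitoneal injection at 75 mg/kg for 5 days. The 2 control libraries (CON) came from mice with the same Cre allele and floxed Tak1 that received corn oil for 5 days, so every animal carried 1 Cre-bearing Cx3cr1 allele. The mice were 2 months old, and each library was made from 200 cells sorted for EYFP. The drug was given to knockout mice alone, so tamoxifen and the deletion cannot be told apart, and Cx3cr1 also drives Cre in monocytes and other macrophages. The genotype field of both knockout libraries reads Tak3 where the protocol reads Tak1. No label says that the libraries came from separate mice, so p-values measure the spread between these libraries, which may be technical.

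NF-kB dimers are held in the cytoplasm by IkB proteins. When a cytokine or innate immune receptor is engaged, TAK1 (gene Map3k7) activates the IkB kinase complex, IkB is phosphorylated and degraded, and the freed dimers enter the nucleus. Among the genes they switch on are their own inhibitors, which close a negative feedback loop. In microglia this pathway controls the transcription of cytokines and chemokines.

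None of the 8 members that were tested passed the test of knockout against control, and Rela and Nfkb2 were too low to be tested. The separations of the groups that were seen ran in both directions. The deubiquitinase gene Tnfaip3, the subunit gene Relb and the IkB-alpha gene Nfkbia read higher in both knockout libraries than in both controls, while the subunit gene Rel read lower in both. Of those that separated, Nfkbia differed least, and its groups overlapped under another scaling of the libraries. The other 6 genes overlapped between the groups. Of all 7823 genes tested, 0 passed in either direction. Over all 15586 genes, 17.6% had both knockouts above both controls and 8.01% had both below. Levels are given as FPKM, the fragments of a gene scaled to its length and to the fragments mapped in its library, so levels can be compared between genes. In bulk RNA, fewer cells expressing a gene and less of its RNA per cell cannot be told apart.

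Low readings need care in these libraries. The number of reads per library is unknown, and the knockouts had 6055 and 5628 genes that reached 1 FPKM, against 4481 and 3777 in the controls. Even Polr2a, which every cell needs to transcribe messenger RNA, was at 8.50 and 9.04 FPKM in the knockouts against 0.01 and 0 in the controls. A reading near 0 therefore does not show that a member was silent. Of the 10 members, 3 were under 1 FPKM in each knockout, 6 in control 1 and 3 in control 2. Over all genes, 61.15% and 63.89% were under 1 FPKM in the knockouts and 71.25% and 75.77% in the controls. In 3 of the 10 (Rela, Nfkbib and Nfkbie) a single library held over 90% of the FPKM summed over the 4 libraries. That was so in 25% of the tested members and in 32.14% of all tested genes, so it is no trait of the members. Pearson's r between libraries, on the log2(FPKM + 1) scale over the 7823 genes averaging 1 FPKM or more, was 0.523 for the knockouts, 0.590 for the controls and 0.513 to 0.543 between a knockout and a control. That correlation is across genes, which are no independent replicates.

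The promoters of 3 of the 4 genes whose groups did not overlap are shown because NF-kB is known to bind near the start of several of its own feedback genes. They are the 250 bases before the transcript start in RefSeq on GRCm38.p6, read 5′ to 3′ on the strand of the gene. Nfkbia lies at chr12:55492648-55492897, Tnfaip3 (the first of 2 starts) at chr10:19015411-19015660 and Rel at chr11:23770970-23771219, all on the minus strand. Capitals mark matches to the 10-base kappaB consensus on either strand.
Nfkbia: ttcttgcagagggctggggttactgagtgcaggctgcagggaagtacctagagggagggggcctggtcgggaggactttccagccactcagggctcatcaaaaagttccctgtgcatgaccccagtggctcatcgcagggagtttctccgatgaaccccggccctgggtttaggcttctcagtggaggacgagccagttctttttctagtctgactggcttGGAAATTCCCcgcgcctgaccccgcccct
Tnfaip3: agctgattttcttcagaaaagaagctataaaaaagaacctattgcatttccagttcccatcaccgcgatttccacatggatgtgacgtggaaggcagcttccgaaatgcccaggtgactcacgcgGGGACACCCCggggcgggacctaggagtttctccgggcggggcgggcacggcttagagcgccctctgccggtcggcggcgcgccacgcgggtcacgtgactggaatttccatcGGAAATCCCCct
Rel: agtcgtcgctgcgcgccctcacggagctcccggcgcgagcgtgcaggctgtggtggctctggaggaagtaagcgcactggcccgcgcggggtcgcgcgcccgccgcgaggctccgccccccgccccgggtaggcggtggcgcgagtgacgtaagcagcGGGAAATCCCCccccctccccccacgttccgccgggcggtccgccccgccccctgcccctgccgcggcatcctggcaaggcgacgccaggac

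The match in Nfkbia ran from position -29 to -20, counted back from the first transcribed base. Tnfaip3 had 2 matches, at -125 to -116 and at -12 to -3 of its first start, and none at its second. Rel had 1 match, at -92 to -82, in which overlapping matches on the 2 strands were merged. Promoter windows, with 50 bases after the start included, were matched for 7 of the 10 members by gene identifier. Of these 7, 5 held a match (Nfkb2, Rel, Nfkbia, Nfkbie and Tnfaip3) and 2 did not (Rela and Nfkbib). Nfkb1, Relb and Nfkbiz were not matched. A match was found in 11.5% of the 12309 genes of the expression table with a window, and in 8.46% of all 32851 windows. A match describes the letters only, and its presence did not go with 1 direction. Nfkbia and Tnfaip3 read higher in the knockouts, Rel read lower, and Nfkb2 and Nfkbie overlapped.

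**Figure D1:**
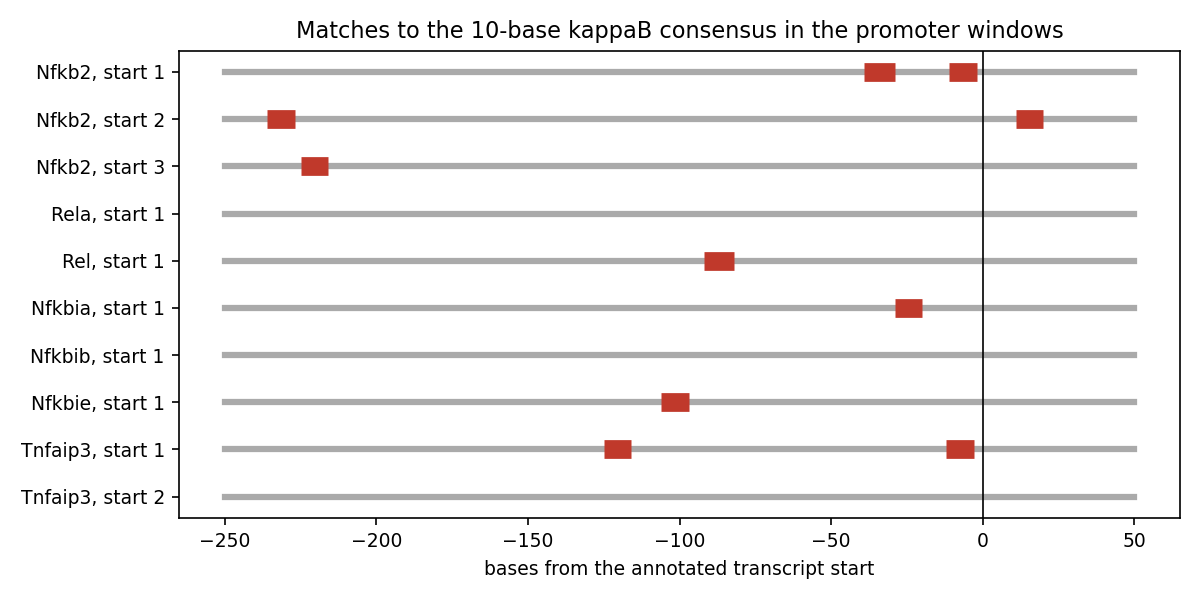
Matches to the 10-base kappaB consensus (red) along the 300-base promoter windows (grey) of the 7 matched members, by distance in bases from the annotated transcript start; genes with several starts have a row for each. Matches lie in 5 of the 7 genes, and those nearest before a start are in Nfkb2, Nfkbia and Tnfaip3.

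Nfkb1 encodes the precursor of a DNA-binding subunit that pairs with Rela. It read 4.84 and 12.6 FPKM in knockouts 1 and 2 against 32.5 and 6.70 FPKM in controls 1 and 2. Control 1 was highest, knockout 1 lowest, and the groups overlapped. Nfkb1 was the highest of the 5 subunits in each of the 4 libraries. Its log2 fold change, knockout minus control on the log2(FPKM + 1) scale, was -0.85 with an SE of 1.62 (limma adjusted p = 0.813), and without control 1 its sign turned, to 0.21.

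Rela encodes the transactivating subunit of the canonical dimer. It read 3.12 FPKM in knockout 1 and was listed at 0 in knockout 2, against 0.03 FPKM in control 1 and a listing at 0 in control 2. A single library therefore carried 99.05% of its summed FPKM. Nfkb2, the precursor of the subunit of the non-canonical arm, read 0.71 and 1.02 FPKM in the knockouts against 0.46 and 1.10 FPKM in the controls, with overlapping groups. Rela and Nfkb2 had means of 0.79 and 0.82 FPKM over the 4 libraries, below the minimum of 1 FPKM, and were not tested. With no minimum, limma gave adjusted p = 0.688 for Rela and 0.994 for Nfkb2.

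Rel encodes c-Rel, a transactivating subunit prominent in lymphoid and myeloid cells. It was listed at 0 in knockout 1 and read 0.24 FPKM in knockout 2, against 9.94 and 1.68 FPKM in controls 1 and 2. Both knockouts lay below both controls, which themselves differed several-fold. Its log2 fold change was -2.28 with an SE of 1.63 (limma adjusted p = 0.698).

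Relb encodes the partner of the processed Nfkb2 product in the non-canonical arm. It read 4.01 and 8.29 FPKM in the knockouts against 0.04 FPKM in each control. Both knockouts lay above both controls. The log2 fold change was 2.71 with an SE of 1.55, and its 95% interval of -1.09 to 6.51 included 0 (limma adjusted p = 0.698). Without knockout 1 the adjusted p was 0.0432, with a log2 fold change of 3.16, and without knockout 2 it was 0.0295, with 2.27. Such a fit takes its spread from the controls alone, which both read 0.04 FPKM here, and assumes that the single knockout left varies as they do. It called 10.2% of all tested genes higher without knockout 1 and 18.5% without knockout 2. The other members called were Nfkbib without knockout 1 and, without knockout 2, Rela, which then passed the minimum.

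Relb was second to Nfkb1 among the subunits in both knockouts, and Rel was second in both controls. The 5 subunits together summed to 12.7 and 22.2 FPKM in the knockouts against 43.0 and 9.52 FPKM in the controls, with no separation of the groups.

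Nfkbia encodes IkB-alpha, the inhibitor that is resynthesised fastest after NF-kB activation. It read 153 and 155 FPKM in the knockouts against 80.1 and 131 FPKM in the controls. It was the highest member in each library, above 91.2% to 94.3% of all genes in the table. The means were 153.7 ± 1.15 FPKM in knockouts and 105.5 ± 35.8 FPKM in controls (SD, n = 2 each), a ratio of 1.46. The log2 fold change was 0.58 with an SE of 0.84 (limma adjusted p = 0.739). Relative to the median of all tested genes, 0.94, it stood at -0.36. With median ratio scaling it read 103 and 118 in the knockouts against 87.5 and 209 in the controls, the groups overlapped, and the log2 fold change was -0.30.

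Tnfaip3 encodes a ubiquitin-editing enzyme that switches off signalling upstream of the IkB kinases. It read 33.4 and 50.6 FPKM in the knockouts against 0.13 and 3.80 FPKM in the controls. The lower knockout was several-fold above the higher control, and the controls differed widely from each other. It had the largest positive log2 fold change of the tested members, 4.18 with an SE of 1.63 and a 95% interval of 0.20 to 8.16. Its unadjusted p was 0.0425 and its limma adjusted p 0.636. The limma interval included 0 after median ratio scaling (-0.91 to 7.75), after quantile normalization (-1.60 to 6.88), with a robust variance (-0.34 to 8.69) and with pseudocounts of 0.1 FPKM (-0.13 to 11.01) and 5 FPKM (-0.10 to 5.66), and its unadjusted p was then no longer under 0.05. The same held without control 1 (-0.35 to 6.61), without knockout 1 (-3.39 to 12.34) and without knockout 2 (-3.78 to 11.55). Relative to the median of all tested genes it stood at 3.24. Both knockouts lay above both controls also after rescaling to the same sum, after median ratio scaling (22.4 and 38.7 against 0.14 and 6.08) and after quantile normalization.

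Nfkbiz encodes IkB-zeta, an atypical nuclear IkB that is itself induced and helps transcribe secondary NF-kB genes. It read 48.7 and 23.0 FPKM in the knockouts against 22.1 and 120 FPKM in the controls. Both knockouts fell between the controls, and the log2 fold change was -0.62 with an SE of 1.36 (limma adjusted p = 0.846). It was 0.58 without control 2, so its sign rests on that library. In control 2, Nfkbiz made up 45.3% of the summed FPKM of the 10 members, against 15.2% in control 1 and 17.4% and 8.51% in the knockouts.

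Nfkbib and Nfkbie encode IkB-beta and IkB-epsilon, cytoplasmic inhibitors that are degraded like IkB-alpha. Nfkbib was listed at 0 in knockout 1 and read 19.6 FPKM in knockout 2, against 0.05 FPKM in each control. Nfkbie read 32.0 and 0.54 FPKM in the knockouts against 0.03 and 1.00 FPKM in the controls. In each case 1 knockout was high and the other was in or below the range of the controls. Their log2 fold changes were 2.11 with an SE of 1.95 and 2.31 with an SE of 2.04 (limma adjusted p = 0.698 for both). The high reading was in knockout 2 for Nfkbib and in knockout 1 for Nfkbie. Without knockout 1, where Nfkbib was listed at 0, its log2 fold change was 4.29, which rests on the single reading in knockout 2.

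**Figure D2:**
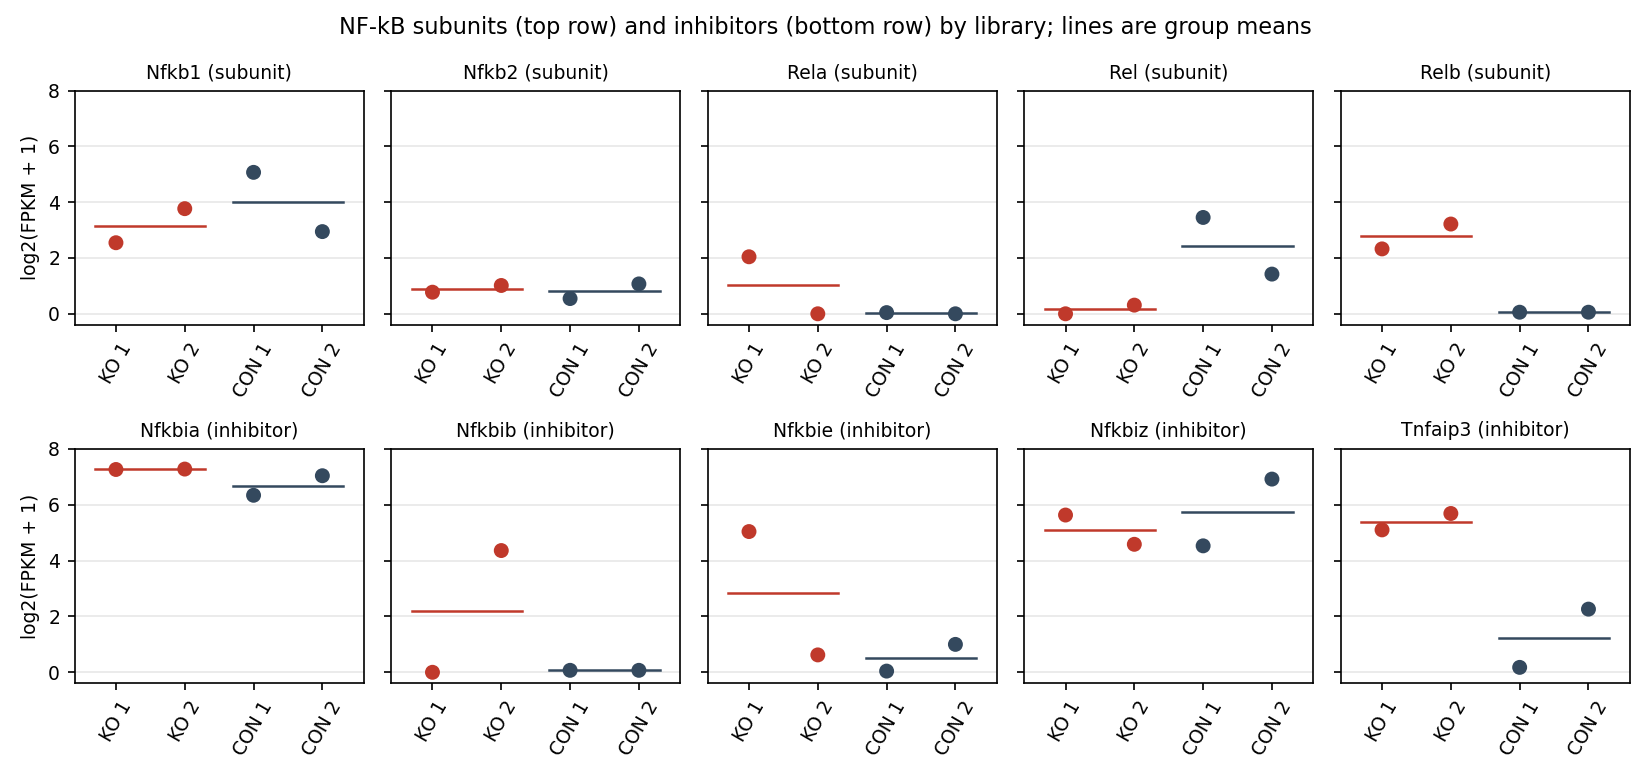
log2(FPKM + 1) of the 10 members in the 2 knockout (KO, red) and 2 control (CON, dark blue) libraries, 1 panel per gene, with a line at each group's mean on that scale. Tnfaip3, Relb and Nfkbia have both knockout points above both control points, Rel has both below, and Rela, Nfkbib and Nfkbie have a single high library.

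By RefSeq on GRCm38.p6 the subunit genes lie at chr3:135584655-135691969 (Nfkb1), chr19:46300994-46312400 (Nfkb2), chr19:5637442-5648134 (Rela), chr11:23736847-23770969 (Rel) and chr7:19606217-19629438 (Relb). The inhibitor genes lie at chr12:55489409-55492647 (Nfkbia), chr7:28758251-28766644 (Nfkbib), chr17:45555700-45563169 (Nfkbie), chr16:55811375-55838954 (Nfkbiz) and chr10:19000910-19015410 (Tnfaip3).

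The 5 inhibitors summed to 267 and 248 FPKM in the knockouts against 102 and 256 FPKM in the controls, and control 1 stood apart. Nfkbiz, counted here as an inhibitor though it also helps transcribe NF-kB genes, held 120 FPKM of the sum in control 2. It held 22.1 FPKM in control 1 and 48.7 and 23.0 FPKM in the knockouts, so control 2 reached the knockouts' sums through Nfkbiz. The inhibitor sum was 21.1 and 11.2 times the subunit sum in the knockouts and 2.38 and 26.9 times in the controls, so the groups overlapped in this ratio too. Nfkbia alone made up 54.7% and 57.1% of the FPKM of the 10 members in the knockouts and 55.1% and 49.3% in the controls. The share of the family taken by IkB-alpha transcripts thus varied less across libraries than that of Nfkbiz.

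Both knockouts exceeded both controls in 3 of the 10 members and were under them in 1, while over all 15586 genes 17.6% lay above and 8.01% below. Members with low levels in 1 group passed the minimum through the other group, so the 8 tested members are not a neutral sample. Of the 7823 genes tested, 27.8% had both knockouts above both controls and 11.4% had both below. The smallest p that an exact two-sided permutation test can reach with 2 libraries in each group is 0.333. At an adjusted p under 0.05 limma called 0 of the 8 tested members and 0% of all tested genes in either direction. At an unadjusted p under 0.05 it held 1 member, Tnfaip3, among 6.07% of all tested genes higher and 1.62% lower. That split of 475 higher and 127 lower genes became 269 and 361 after median ratio scaling and 238 and 158 after quantile normalization. The tested members had a median log2 fold change of 1.35, against 0.94 for all tested genes. This order turned at a mean of at least 5 FPKM, with 0.58 for the members and 0.70 for all tested genes. It turned also without knockout 1 (0.59 against 0.64) and without control 2 (0.98 against 1.04). The median of all tested genes was 0.32 after median ratio scaling and 0.12 after quantile normalization.

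**Figure D3:**
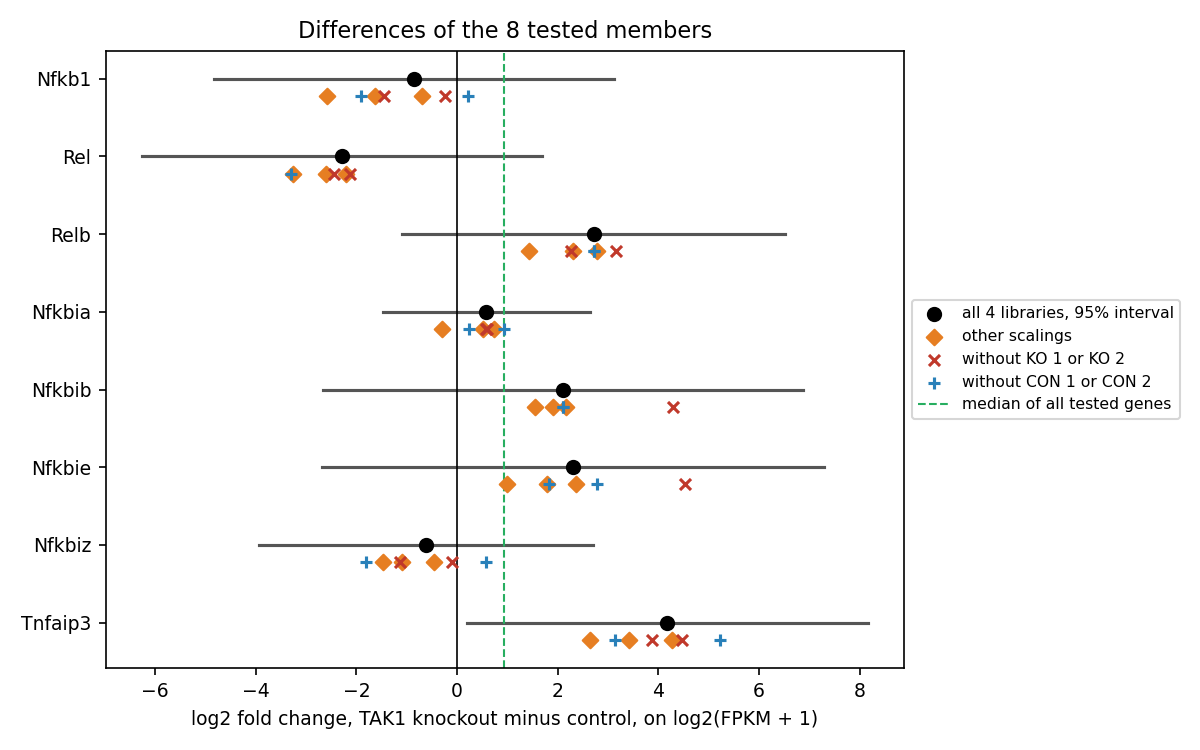
log2 fold change (knockout minus control, on log2(FPKM + 1)) of the 8 tested members, with the 95% interval of the limma fit on all 4 libraries (black) and, below each, the values under 3 other scalings (orange) and without single libraries (red, blue). Of the 8 intervals drawn, that of Tnfaip3 alone lies above 0, which does not hold after median ratio scaling or quantile normalization, and the points of Nfkb1, Nfkbia and Nfkbiz fall on both sides of 0.

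The genes most like Nfkbia over the 4 libraries, by Euclidean distance of log2(FPKM + 1) among the tested genes, were Wdr61 (0.35), B4galt1 (0.39) and Ndufs7 (0.59). Wdr61 read 135 and 173 FPKM in the knockouts against 71.7 and 150.4 FPKM in the controls. B4galt1, a galactosyltransferase gene, read 177 and 137 FPKM in the knockouts against 78.1 and 158 FPKM in the controls. The nearest other member was Nfkbiz, at a distance of 3.64 and ranked 909 of the tested genes. This likeness is over 4 libraries only and is a description.

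Upstream of the members, the list of IkB kinase subunits and adaptors had 17 genes in the table, of which 3 had both knockouts above both controls, 0 had both below, and 7 were under 1 FPKM in all 4 libraries. The share above was the 17.6% found over all genes. Limma called 0 of the 17, and the median log2 fold change of the 8 tested was 1.72, against 0.94 for all tested genes. Ikbkb, the catalytic kinase of the canonical arm, read 15.1 and 0.77 FPKM in the knockouts against 0 and 0.02 FPKM in the controls. Chuk, the other catalytic kinase, read 25.0 and 0.06 FPKM in the knockouts against 0.05 and 0.02 FPKM in the controls. Each separated the groups with a single high knockout. Myd88, the adaptor of Toll-like and interleukin receptors, was listed at 0 in knockout 1 and read 29.5 FPKM in knockout 2, against 0.07 and 0.04 FPKM in the controls. Irak1, a kinase that acts with it, read 12.3 and 7.15 FPKM in the knockouts against 10.4 and 1.38 FPKM in the controls. For the deleted gene itself, Map3k7, the readings were 0.02 and 0.08 FPKM in the knockouts against 0.03 and 0 in the controls, too low to check the labels. Its partners Tab2 and Tab3 read 24.4 and 28.3, and 0.02 and 4.49 FPKM, in the knockouts, against 20.4 and 0.62, and 0 and 0.02 FPKM, in the controls. Tab1 and Map3k14 were not analysed here.

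Enzymes that write or remove the ubiquitin chains of this pathway, the group to which Tnfaip3 belongs by function, stood above both controls in 7 of 14 genes and below in 0, while over all genes 17.6% lay above and 8.01% below. Limma called 0 of the 14, and the median log2 fold change of the 11 tested was 0.89, just under the 0.94 of all tested genes. Otulin, which removes linear chains, read 34.3 and 65.3 FPKM in the knockouts against 0.05 and 0.39 FPKM in the controls (limma unadjusted p = 0.0148, adjusted p = 0.559). Rbck1, a subunit of the enzyme that makes linear chains, read 3.86 and 27.01 FPKM in the knockouts against 0.03 FPKM in each control. Ube2n and Ube2v1, which together build lysine-linked chains that recruit TAK1, read 611 and 585 FPKM, and 62.0 and 35.1 FPKM, in the knockouts, against 193 and 536 FPKM, and 9.25 and 1.11 FPKM, in the controls. Tax1bp1, an adaptor of Tnfaip3, read 97.8 and 202 FPKM in the knockouts against 28.8 and 92.9 FPKM in the controls. Of these 5 genes, all but Tax1bp1 are given because they had the smallest p of the list, so their shared direction follows in part from that choice, and 7 genes of the list overlapped between the groups.

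The list of other IkB proteins had 2 genes, and both overlapped. Bcl3, an atypical nuclear IkB, read 0.08 FPKM in both knockouts against 41.8 and 0.08 FPKM in the controls. Nfkbid stayed under 1 FPKM in every library. Of 9 genes for IkB degradation and coactivation, 0 lay above both controls and 2 below, against 17.6% above and 8.01% below over all genes, and the 8 tested had a median log2 fold change of -0.32. Rbx1, a ring subunit of the ligase that ubiquitinates IkB, read 358.5 and 346 FPKM in the knockouts against 431 and 464 FPKM in the controls, and the coactivator Ep300 read 0.01 and 3.02 FPKM against 5.66 and 8.40 FPKM. Nedd8, whose product activates that ligase, overlapped at 1413 and 1139 FPKM in the knockouts against 1317 and 1867 FPKM in the controls. Limma called 0 of the 9.

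Of 32 NF-kB target genes in the table, 8 had both knockouts above both controls, 4 had both below and 20 overlapped. Of the 26 tested targets 7 lay above and 4 below, near the 27.8% and 11.4% of all tested genes. Limma called 0, and the tested targets had a median log2 fold change of -0.06 against 0.94 for all tested genes. Il1b, a cytokine gene, read 24.8 and 36.6 FPKM in the knockouts against 638 and 388 FPKM in the controls. Bcl2a1b, an antiapoptotic gene whose level is uncertain because reads can be split with near-identical copies, read 906 and 939 FPKM in the knockouts against 2608 and 1717 FPKM in the controls. Tnf and Plaur, a cytokine and the urokinase receptor, went the other way at 80.1 and 43.4, and 62.4 and 84.8 FPKM, in the knockouts, against 0 and 0.04, and 0.28 and 0.05 FPKM, in the controls. These 4 genes had unadjusted p from 0.0035 to 0.0153 and a limma adjusted p of 0.559. Ccl2, a chemokine gene, read 1164 and 8224 FPKM in the knockouts against 11395 and 4999 FPKM in the controls, and Ccl7, another, read 9.52 and 5415 FPKM against 13902 and 564 FPKM. Both overlapped between the groups.

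**Figure D4:**
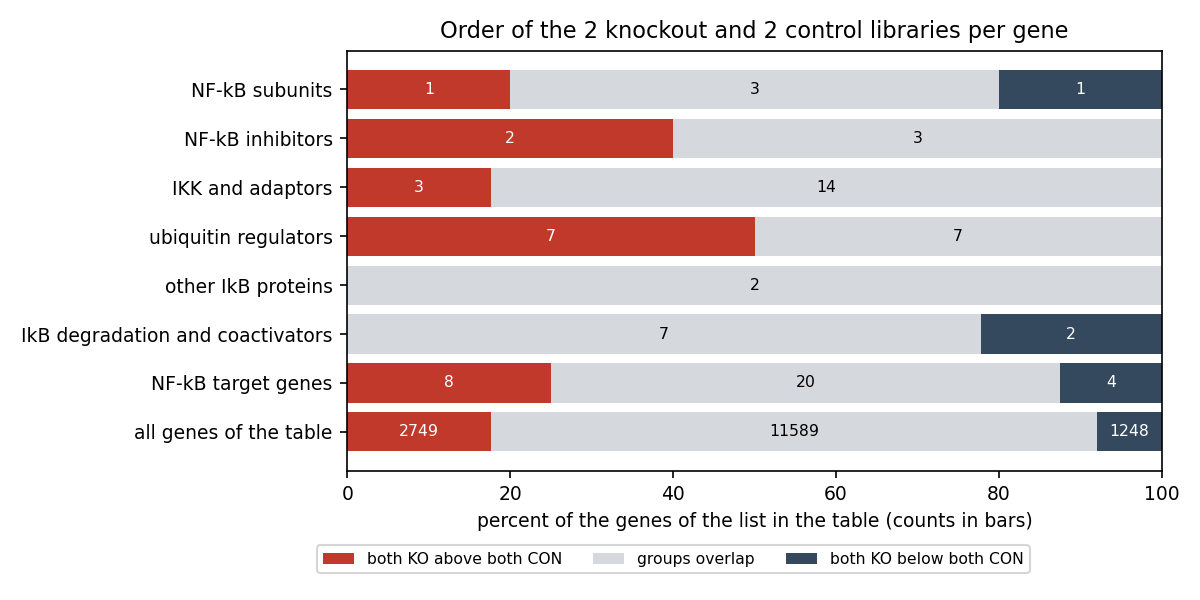
Share of the genes of each list with both knockout libraries above both controls (red), overlapping or tied (grey) and below (dark blue), with the gene counts in the bars and all 15586 genes in the bottom row. The ubiquitin regulators have 7 of 14 genes above and 0 below, and over all genes 2749 lie above and 1248 below.

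The sorted cells carried microglial transcripts in all libraries: 14 of 14 microglia markers were in the table, summing to 27700 and 20820 FPKM in the knockouts against 12890 and 14890 FPKM in the controls, with 8 above and 2 below. Summed markers of several other cells also differed between the groups, beside the members described above, though not every marker did. Over all genes 17.6% lay above both controls and 8.01% below. The 14 rod markers summed to 6393 and 9402 FPKM in the knockouts against 2247 and 3255 FPKM in the controls, with 12 above and 0 below. The 9 bipolar cell markers summed to 907 and 760 FPKM in the knockouts against 4.38 and 180 FPKM in the controls. Of these 9, 5 lay above both controls, 0 lay below, 4 overlapped, and 4 were under 1 FPKM in all libraries. Most of the sum was Pcp2 and Gng13. Pcp2 read 647 and 572 FPKM in the knockouts against 3.28 and 95.7 FPKM in the controls. Gng13 read 221 and 178 FPKM in the knockouts against 1.02 and 67.2 FPKM in the controls. The 8 monocyte markers summed to 53.3 and 122 FPKM in the knockouts against 908 and 1328 FPKM in the controls. Of these 8, 0 lay above both controls, 2 lay below and 6 overlapped. The 2 below were Ccr2 and Cd209a. Ccr2 read 1.81 and 0.59 FPKM in the knockouts against 316 and 151 FPKM in the controls. Cd209a read 1.19 and 2.10 FPKM in the knockouts against 503 and 886 FPKM in the controls. Plac8 overlapped, at 0.39 and 0.14 FPKM in the knockouts against 0.13 and 173 FPKM in the controls. Hp, of the same list, was listed at 0 or under 1 FPKM in all libraries.

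The 8 perivascular macrophage markers summed to 190 and 715 FPKM in the knockouts against 2334 and 1752 FPKM in the controls, with Cd163 under 1 FPKM throughout. Of these 8, 0 lay above both controls, 2 lay below and 6 overlapped. The 2 below were Ms4a7 and Clec12a, which made up most of the control sums. Ms4a7 read 189 and 155 FPKM in the knockouts against 1614 and 1547 FPKM in the controls. Clec12a read 0.36 and 0.48 FPKM in the knockouts against 144 and 199 FPKM in the controls. Pf4 overlapped, at 0.51 and 303 FPKM in the knockouts against 367 and 1.04 FPKM in the controls. Müller glia and astrocyte markers summed to 1021 and 635 FPKM in the knockouts against 267 and 432 FPKM in the controls. Of these 8 markers, 1 lay above both controls, 1 lay below and 6 overlapped. Most of the knockout sum was Glul, at 774 and 599 FPKM in the knockouts against 84.6 and 318 FPKM in the controls. Vim went the other way, at 1.78 and 5.80 FPKM in the knockouts against 87.8 and 29.1 FPKM in the controls. Endothelial and pericyte markers summed to 8.32 to 156 FPKM in the knockouts and to 0.05 to 1.93 FPKM in the controls. Of 5 endothelial markers only Flt1 lay above both controls, and the other 4 were under 1 FPKM throughout. Of 5 pericyte markers Vtn and Rgs5 lay above, Rgs5 with a single high knockout, and 3 overlapped. Pdgfrb read 0.09 and 0 FPKM in the knockouts against 0.03 and 1.71 FPKM in the controls. Amacrine and ganglion cell markers summed to 131 and 44.2 FPKM in the knockouts against 0.28 and 27.2 FPKM in the controls. Of these 9 markers 3 lay above, 6 overlapped and 5 were under 1 FPKM throughout. The lymphocyte markers in the table stayed at or below 0.03 FPKM in sum, and neutrophil markers were not analysed here. Genes of the stress response to tissue dissociation summed to 2115 and 886 FPKM in the knockouts against 1709 and 966 FPKM in the controls, with 2 of 12 above and 3 below. The part of these cells and of the dissociation response in the values of Tnfaip3, Relb, Nfkbia and Rel was not tested.

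**Figure D5:**
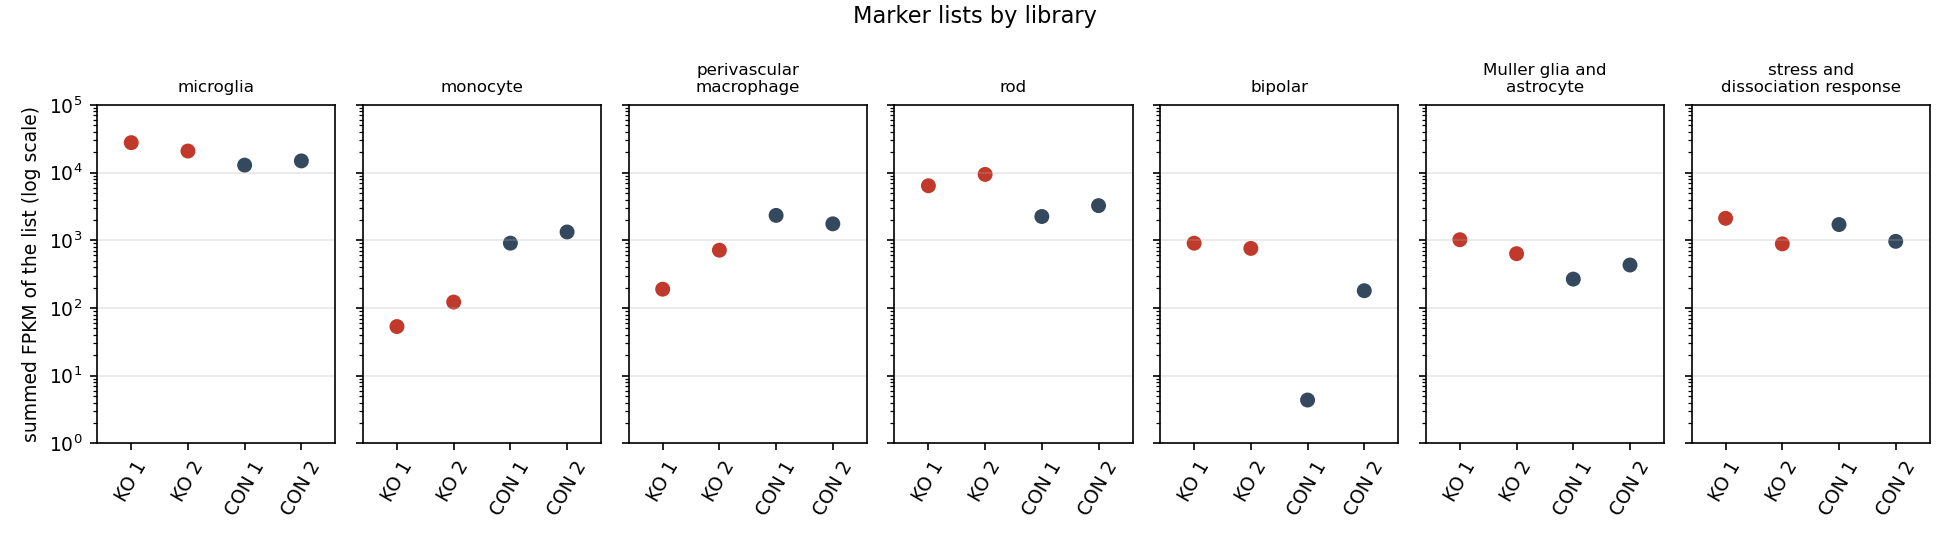
Summed FPKM (log axis) of 7 marker lists in the 2 knockout (KO, red) and 2 control (CON, dark blue) libraries. Rod and bipolar sums are higher and monocyte and perivascular macrophage sums lower in both knockouts, while the dissociation response overlaps. By single markers, 4 of 9 bipolar, 6 of 8 monocyte and 6 of 8 perivascular macrophage markers overlap.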

How the data were processed

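RNA-seq libraries of 200 sorted cells were made with SMART-seq type cDNA, PCR amplification and transposon-based construction, per the labels' protocols. The authors deposited 1 FPKM per gene and library, rounded to 2 decimals, and the submitters' processing notes name the build mm10. For the aligner, the quantifier and the annotation the sources used here give no name. FPKM keep no counts. Among genes between 0.1 and 1 FPKM in both of a pair of libraries, 8.74% to 16.2% of the ratios lay within 5% of the most common one, so whole reads were not recovered, depth is unknown and no counting interval is given. Without molecular identifiers, PCR copies of 1 molecule count again.

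From the deposited FPKM, log2(FPKM + 1) was fitted in the 7823 genes averaging 1 FPKM or more, using limma 3.58.1 under R 4.3.3 with a variance prior that follows the mean and no replicate block, with Benjamini-Hochberg adjustment over all tested genes and a threshold of 0.05. Fold changes on this scale understate those of low genes. The code was tested on simulated data. Columns were matched to samples by title. Sequences and coordinates are from RefSeq on GRCm38.p6, matched by gene identifier. Figures were drawn with matplotlib 3.10.9.

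The members and the lists were chosen with earlier results of these data known. Named genes were all members, up to 4 per pathway list with the smallest p and 2 with the highest mean, up to 3 per marker list with the highest mean, Map3k7 and its partners, and the 3 nearest to the highest member. Of the marker genes so named, only some are given by value. Some genes that the rule names are not reported here. Polr2a, Hp and Cd163 were chosen after their values were seen. Alternatives were pseudocounts of 0.1, 0.5 and 5 FPKM, no minimum or a mean of 5 FPKM, 3 other scalings, a variance prior that was flat or robust, a block for the replicate number, and each library left out.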

Additional observations from a re-analysis of the deposited data

How the results depend on the processing

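No member was called under any alternative that kept all 4 libraries. Leaving out 1 library called 0 to 2 members, and over all genes it called 0 to 1306 higher and 0 to 5 lower. All of the 697 genes called higher without knockout 1, and 1303 of the 1306 without knockout 2, read under 1 FPKM in both controls. Quantile normalization called 2 genes higher and 3 lower. With the replicate block 15 genes were called higher and 20 lower, none of them a member. That fit left 1 residual degree of freedom, and its smallest limma adjusted p was 1.63e-121, so these calls carry little weight. The numbers were not shown to pair the libraries, since the deviations of knockout 1 and control 1 from their group means correlated at r = 0.02 across genes.

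The number of tested members above both controls was 2 after median ratio scaling, where Nfkbia overlapped. It was 2 at a mean of at least 5 FPKM, where Relb was not tested, and 3 to 5 when 1 library was left out. Over all tested genes, 2174 of 7823 lay above without rescaling and 1614 of 7823 after median ratio scaling. That count was 1591 of 5670 at a mean of at least 5 FPKM. With 1 library left out it ran from 2970 of 6863 to 3416 of 7542. The number of tested members below both controls was 2 after median ratio scaling and after quantile normalization, which put Nfkb1 below as well. It was 0 at a mean of at least 5 FPKM, where Rel was not tested, and 1 to 2 when 1 library was left out. Over all tested genes, 890 of 7823 lay below without rescaling, 1565 after median ratio scaling and 1554 after quantile normalization. That count was 747 of 5670 at a mean of at least 5 FPKM. With 1 library left out it ran from 1459 of 6863 to 2094 of 7668. The median log2 fold change of the tested members, 1.35, was 1.91, 1.55 and 0.84 with pseudocounts of 0.1, 0.5 and 5 FPKM, 0.79 with no minimum, 0.58 at a mean of 5 FPKM, 0.74 after median ratio scaling and 0.76 after quantile normalization. It ran from 0.59 to 1.43 when 1 library was left out.

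The sign turned for Nfkbia after median ratio scaling (-0.30), for Nfkb1 without control 1 (range -1.91 to 0.21 over the libraries left out) and for Nfkbiz without control 2 (-1.81 to 0.58). The causes were not tested. Tnfaip3, Relb, Rel, Nfkbib and Nfkbie kept their sign wherever they were tested. Over all alternatives Tnfaip3 ran from 2.64 to 5.44, Relb from 1.12 to 5.39, Rel from -4.52 to -0.96, Nfkbib from 1.13 to 4.29 and Nfkbie from 0.99 to 4.52, the last without knockout 2. Unknown depth limits every reading near 0.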
